A study of Arabidopsis thaliana with 2 samples.

Results

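The genes described are 9 regulators of flavonoid synthesis in Arabidopsis thaliana (thale cress), chosen by locus for their known roles, out of 27336 loci in the count tables. They are MYBL2 (AT1G71030), PAP1 (AT1G56650, also called MYB75), MYB11 (AT3G62610), MYB12 (AT2G47460), MYB111 (AT5G49330), TT8 (AT4G09820), GL3 (AT5G41315), EGL3 (AT1G63650) and TTG1 (AT5G24520). Each of the 9 has a row in both tables. The 9 and the lists of related genes used below were chosen with earlier results of these data known. The samples were leaves of soil-grown plants of the Columbia ecotype, 3 weeks old, from the mutant line atpip1;2-1 and from the wild type. The mutant (its library is called the mutant library) is deficient in PIP1;2, a plasma membrane aquaporin, and the labels do not describe the mutation beyond the name of this 1 allele. Both genotypes grew in a greenhouse with 12 h of light a day. Each genotype had 1 library, prepared from the transcript 3′ ends of leaves of 10 plants, so the differences have no replicate check and the spread between pools of plants is unknown.

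Flavonoids are phenolic pigments and sunscreens that leaves make from phenylalanine by way of chalcone synthase. Flavonols need the early enzymes of the pathway, which the related factors MYB11, MYB12 and MYB111 activate without a bHLH partner. Anthocyanins need the late enzymes as well, which are activated by a complex of a MYB such as PAP1, a bHLH protein (TT8, GL3 or EGL3) and the WD-repeat protein TTG1. MYBL2 is a small MYB-type protein that binds the bHLH partners and represses the late genes.

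The mutant library held 4041759 reads and the wild-type library 4079098. As a check of the labels, PIP1;2 (AT2G45960) had 566 reads in the mutant library and 4211 in the wild-type library, a log2 ratio of -2.95 (95% interval -3.08 to -2.83). Levels are given as CPM, counts scaled to a common library size by the trimmed mean of M values (TMM), and all intervals are 95% intervals that cover counting error only. A gene was tested when it had at least 20 reads over both libraries. It was called higher or lower when an exact binomial test of its reads, adjusted over all tested genes, gave an adjusted p under 0.05 and the ratio was at least 2-fold, which compares these 2 libraries and not the genotypes. Of the 15111 tested genes 2.58% were called, 209 higher and 181 lower in the mutant library, and 4.43% differed by at least 2-fold whatever their test. With total counts as the library sizes the split was 272 higher and 120 lower, and with the summed reads of 11 reference genes it was 676 and 56. The leaf mesophyll markers were abundant in both libraries, with RBCS1A at 17918 CPM in the mutant library and 23128 CPM in the wild-type library. All 4 seed markers were at 0 reads in both libraries. The root markers had 15 reads in the mutant library and 10 in the wild-type library, all of them from PYK10. The 4 flower markers together had 1 read in the mutant library and 3 in the wild-type library.

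MYBL2 was the regulator with the most reads in both libraries and the only 1 of the 9 that was called. TTG1 was next and was somewhat higher in the mutant library, by less than 2-fold. PAP1 and MYB111 were present at low levels with ratios that could not be told from 1, and the other 5 (MYB11, MYB12, TT8, GL3 and EGL3) were at or near 0 reads in both libraries. In total 3 of the 9 regulators (MYBL2, MYB111 and TTG1) reached the minimum of 20 reads. The called share of these 3 is no measure of the group, because 6 regulators had too few reads to be tested.

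**Figure D1:**
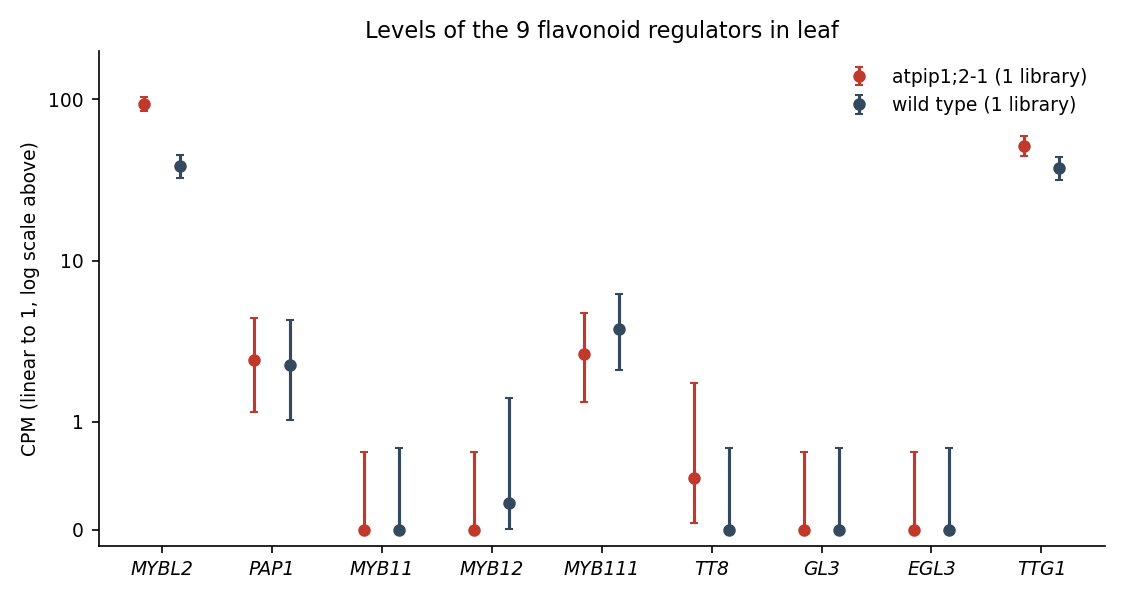
Levels of the 9 regulators in CPM (linear up to 1 and on a log scale above) in the atpip1;2-1 library and the wild-type library, 1 library each. Points are the measured levels and bars are 95% exact Poisson intervals of the reads, or for 0 reads the range up to 3 reads. MYBL2 lies at 93.7 CPM in the atpip1;2-1 library and 38.4 CPM in the wild-type library with intervals that do not overlap, TTG1 lies at 51.4 CPM in the atpip1;2-1 library and 37.4 CPM in the wild-type library, and MYB11, GL3 and EGL3 are at 0 in both.

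MYBL2, the repressor, had 388 reads in the mutant library and 153 in the wild-type library. This was 93.7 CPM (84.6 to 103.5) in the mutant library, against 38.4 CPM (32.6 to 45.0) in the wild-type library. The intervals of the levels do not overlap. The ratio was 2.44-fold (2.02 to 2.96), a log2 ratio of 1.29 (1.01 to 1.57), with an adjusted p of 9.5e-21 by the exact binomial test of the reads with Benjamini-Hochberg adjustment. The called share among all tested genes was 1.38% in this direction. A ratio as high as that of MYBL2 or higher was found for 146 of the 15111 tested genes (0.966%). Among the 790 tested genes with total reads within a factor of 1.2 of its own, 6 (0.759%) were called higher.

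The size of this difference can be set against the scatter of other genes. The 1889 genes with 300 to 600 reads over both libraries, the range in which MYBL2 (541 reads) and TTG1 (362 reads) lie, had log2 ratios with a robust SD of 0.32, while the median SD expected from counting alone was 0.15. The log2 ratio of MYBL2 (1.29) was larger than this scatter, and that of TTG1 (0.46) was of its order. When a biological coefficient of variation of 0.1 was assumed in the edgeR exact test, MYBL2 was still called. With an assumed coefficient of 0.2 its adjusted p was 0.802 and it was not called, and 18 genes in the whole table were. These coefficients are assumptions, since 1 library per genotype cannot give one.

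TTG1, the WD-repeat scaffold that the bHLH and MYB proteins share, had 213 reads in the mutant library and 149 in the wild-type library. Its level was 51.4 CPM (44.8 to 58.8) in the mutant library and 37.4 CPM (31.7 to 43.9) in the wild-type library. The log2 ratio was 0.46 (0.15 to 0.77), or 1.37-fold, and did not reach the 2-fold threshold although the adjusted p of the exact binomial test was 0.0257. Ratios of this size or higher were common, being found in 13.3% of all tested genes. The proportion of MYBL2 to TTG1 reads differed between the 2 libraries beyond counting error. There were 1.82 MYBL2 reads per TTG1 read in the mutant library and 1.03 in the wild-type library, a ratio of 1.77 (1.33 to 2.37, exact conditional interval) that does not depend on how the libraries are scaled. The interval leaves out the wider scatter between genes described above.

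PAP1, the MYB activator of anthocyanin synthesis, had 10 reads in the mutant library and 9 in the wild-type library, or 2.41 CPM (1.16 to 4.44) in the mutant library and 2.26 CPM (1.03 to 4.29) in the wild-type library. With 19 reads in all it fell 1 read short of the minimum and was not tested. Its log2 ratio was 0.10 with an interval from -1.36 to 1.57, so a change as large as that of MYBL2, in either direction, would not have been detectable at this depth. The other genes of the PAP1 clade were at the limit of detection, with 0 reads in both libraries for PAP2 (MYB90) and MYB114 and with 2 reads in the mutant library and 0 in the wild-type library for MYB113. These are close copies of one another, and no source used here says how reads shared between copies were counted.

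Of the 3 flavonol activators, MYB111 was the one with measurable reads, 11 in the mutant library and 15 in the wild-type library. These were 2.66 CPM (1.33 to 4.75) in the mutant library and 3.77 CPM (2.11 to 6.21) in the wild-type library, a log2 ratio of -0.50 (-1.77 to 0.72) with an adjusted p of 0.729 by the exact binomial test. MYB111 was just above the minimum with 26 reads in all. MYB12 had 0 reads in the mutant library and 1 in the wild-type library, and MYB11 had 0 in both. Summed over the 3 factors there were 11 reads in the mutant library and 16 in the wild-type library, a log2 ratio of -0.60 (-1.85 to 0.60). A count of 0 allows up to 3 reads, which is 0.724 CPM in the mutant library and 0.754 CPM in the wild-type library. For the 1 read of MYB12 the two-sided 95% interval reaches up to 1.40 CPM. Differences in MYB11 or MYB12 below such limits were not detectable at this depth.

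The bHLH partners were almost without reads. TT8 had 2 reads in the mutant library and 0 in the wild-type library, while GL3 and EGL3, which also act in trichome formation, had 0 in both. The two-sided 95% interval for the 2 reads of TT8 reaches up to 1.74 CPM, and 0 reads allow the levels given above. No ratio is given for TT8, GL3 or EGL3. The annotation of assembly TAIR10.1 places another locus over part of MYB11 and of GL3. The overlapping loci were not among the loci in the count tables, and no source used here says whether counting used the strand.

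The order of the levels in CPM was the same in both libraries for the regulators with reads above 3. MYBL2 stood first, TTG1 next, then MYB111 and then PAP1. Per kilobase of the longest TAIR10.1 transcript, MYBL2 was at 70.6 CPM per kb (63.8 to 78.0) in the mutant library and 29.0 CPM per kb (24.6 to 33.9) in the wild-type library, while TTG1 was at 28.1 CPM per kb (24.4 to 32.1) in the mutant library and 20.4 CPM per kb (17.3 to 24.0) in the wild-type library. On this scale MYBL2 lay above TTG1 in both libraries without overlap of the intervals. Without division by length, which suits reads from transcript ends, the wild-type levels of MYBL2 and TTG1 did not differ beyond counting error. MYB111 and PAP1 had overlapping intervals in both libraries on the CPM scale, and so were not separated from each other, and on the per-kilobase scale PAP1 was at 2.18 CPM per kb in the mutant library, above MYB111 at 1.63. Of the reads of all 9 regulators, MYBL2 made up 62.2% (58.2% to 66.0%, exact binomial interval) in the mutant library and 46.8% (41.3% to 52.4%) in the wild-type library. TTG1 made up 34.1% (30.4% to 38.0%) in the mutant library and 45.6% (40.1% to 51.1%) in the wild-type library. The 8 regulators without MYBL2 summed to 57.0 CPM in the mutant library and 43.7 CPM in the wild-type library, a log2 ratio of 0.38 (0.09 to 0.67), nearly all of it from TTG1.

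The neighbours of MYBL2 on chromosome 1 were AT1G71020, with 46 reads in the mutant library and 48 in the wild-type library (log2 ratio -0.12), and LPR2, with 200 reads in the mutant library and 141 in the wild-type library (0.45). Neither was called. The neighbours of TTG1 on chromosome 5 were AT5G24510 with 3 reads in the mutant library and 2 in the wild-type library, and DMR6 with 447 reads in the mutant library and 345 in the wild-type library (log2 ratio 0.32, not called).

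MYBL2 was also placed among the other MYB genes. Of 118 loci whose RefSeq symbol is MYB with a number, or that are MYBL2, PAP1 or TT2, 28 had at least 20 reads, and MYBL2 ranked first by reads over both libraries and second by log2 ratio, after MYB51 (1.37, 43 reads in the mutant library and 16 in the wild-type library). MYB51, an activator of indole glucosinolate synthesis, was named after its values had been seen. Of these 28, 3 were called higher, MYBL2 itself among them, and 0 lower, against 1.38% and 1.2% of all tested genes. The median log2 ratio of the 28 was 0.13, against -0.0025 for all tested genes.

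The list of early flavonoid enzymes holds known targets of MYB11, MYB12 and MYB111 together with glycosyltransferases that act on flavonols. Levels were lower in the mutant library in all 9 tested of the 11 listed genes. With the summed reads of 11 reference genes as the scale this held for 8 of the 9. Among all tested genes 50.2% had a log2 ratio below 0. The median was -0.74, against -0.0025 for all tested genes. Called lower were 2 of the 9, against 1.2% of all tested genes, and 6 of the 9 were lower at an adjusted p under 0.05 at any fold, against 8.69% of all tested genes. This count of 6 was 4 with summed reference genes, 3 with an assumed coefficient of 0.1 and 0 with 0.2. Because the list was chosen with earlier results of these data known, its shares beside those of all tested genes are descriptive only. FLS1, flavonol synthase, had 28 reads in the mutant library and 78 in the wild-type library, a log2 ratio of -1.53 (-2.21 to -0.90) with an adjusted p of 8.8e-06 by the exact binomial test, and was not called with an assumed coefficient of 0.2. CHIL, which assists chalcone isomerisation, had 70 reads in the mutant library and 138 in the wild-type library, a log2 ratio of -1.04 (-1.47 to -0.61). CHIL lay close to the 2-fold threshold, and its call did not hold with an assumed coefficient of 0.2 or under 3 of the 5 other scalings, the ratio being -0.97 with total counts and -0.75 with summed reference genes.

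The more abundant members of this list did not reach 2-fold. CHS, chalcone synthase, the entry enzyme of the pathway, was at 131 CPM (121 to 143) in the mutant library and 211 CPM (197 to 226) in the wild-type library (log2 ratio -0.69, -0.84 to -0.53). The flavonol rhamnosyltransferase gene UGT89C1 was at 35.5 CPM in the mutant library and 65.3 CPM in the wild-type library (-0.88, -1.18 to -0.58). UGT78D1, another rhamnosyltransferase gene, was at 57.2 CPM in the mutant library and 72.8 CPM in the wild-type library (-0.35, -0.60 to -0.10). The glucosyltransferase gene UGT78D2, which acts on flavonols and anthocyanidins, was at 32.8 CPM in the mutant library and 36.2 CPM in the wild-type library (-0.14, -0.49 to 0.21). MYBL2 and CHS thus stood in another proportion in the 2 libraries. There were 0.713 MYBL2 reads per CHS read in the mutant library and 0.182 in the wild-type library, a ratio of 3.92 (3.14 to 4.90) that is free of library scaling. Set against all 11 early enzymes together, the ratio was 3.82 (3.12 to 4.70). It was smaller against UGT75C1 (2.26, 1.69 to 3.04) and LDOX (2.35, 1.42 to 3.89), the late genes with most reads, whose levels are given below. No such ratio was computed for the other tested late genes. Of the 6 tested late genes 3 had log2 ratios below 0, among them 3AT1 (-1.83), and 3 above. The smaller ratio is therefore not shown for the late genes as a group.

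**Figure D2:**
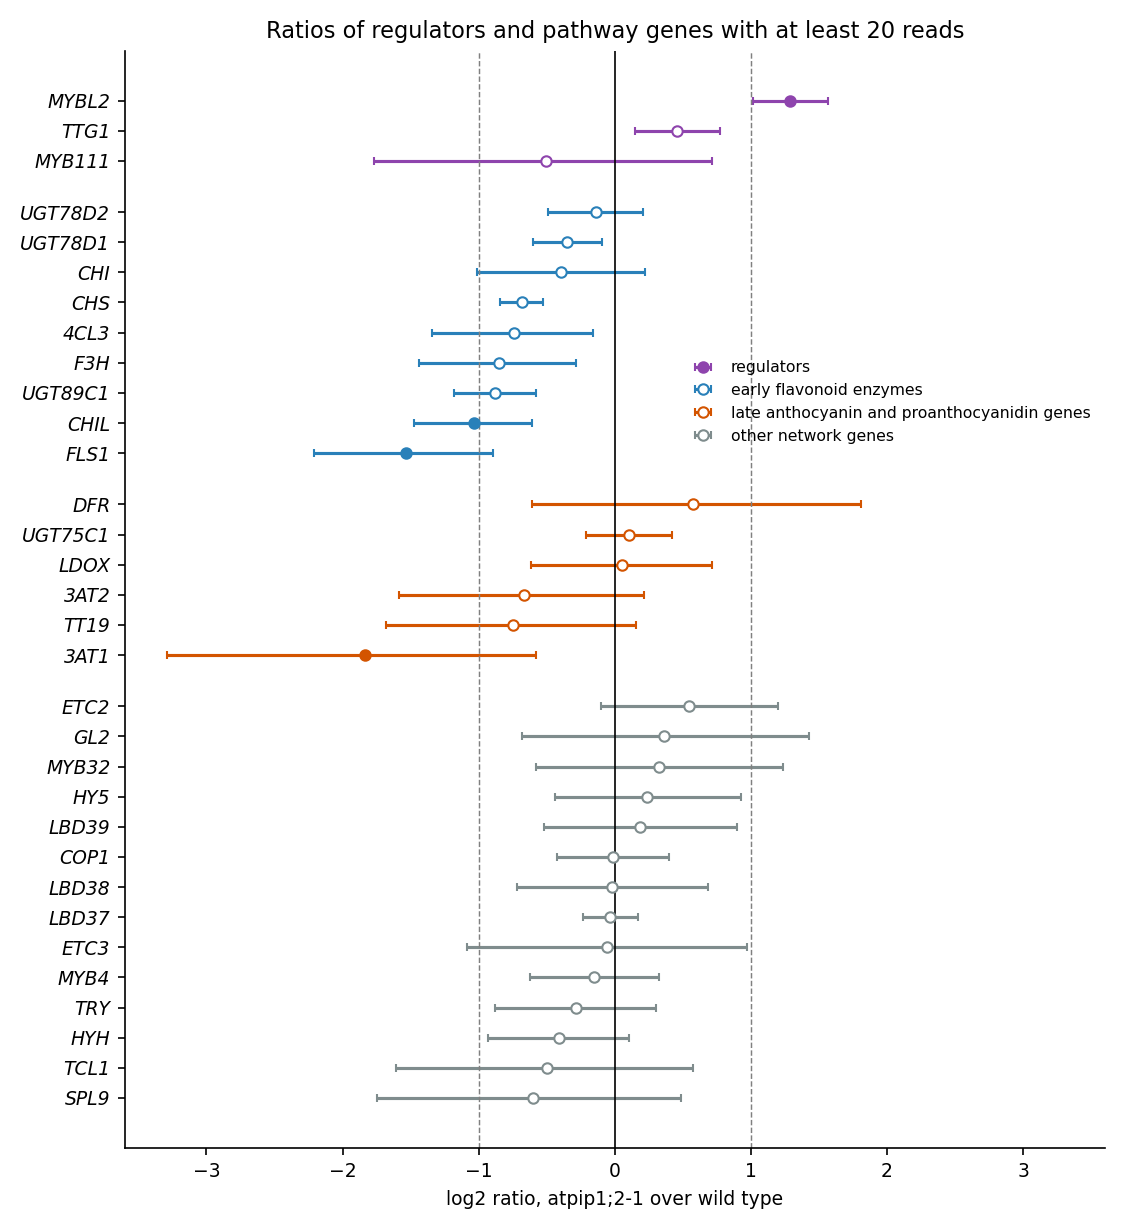
Log2 ratios of the atpip1;2-1 library over the wild-type library for the regulators and the 3 lists of pathway genes that had at least 20 reads, with 95% Clopper-Pearson intervals (counting error only). Filled points were called and open points were not, and dashed lines mark a 2-fold difference. MYBL2 lies at 1.29, all 9 early enzymes lie below 0 (8 of them with summed reference genes as the scale), down to FLS1 at -1.53, and the late genes and other network genes lie on both sides of 0.

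The late genes of anthocyanin and proanthocyanidin synthesis, the known targets of the MYB-bHLH-TTG1 complex, went no single way. Of 11 listed genes 6 were tested, 3 with a log2 ratio above 0 and 3 below, and the median was -0.31. The median was -0.02 with summed reference genes as the scale, and 0.08 over the 2 genes left at a minimum of 50 reads. UGT75C1, an anthocyanin glucosyltransferase and the most abundant, was at 43.2 CPM in the mutant library and 40.2 CPM in the wild-type library (0.11, -0.21 to 0.42). LDOX, anthocyanidin synthase, had 42 reads in the mutant library and 39 in the wild-type library (0.05, -0.61 to 0.72). Called lower was 1 of the 6, against 1.2% of all tested genes. This was the anthocyanin acyltransferase gene 3AT1 with 7 reads in the mutant library and 24 in the wild-type library (-1.83, -3.29 to -0.58, adjusted p 0.0162 by the exact binomial test). The call was lost in the edgeR exact test with an assumed coefficient of 0.1, and with 31 reads in all the gene was not tested at a minimum of 50 reads. Its related copy 3AT2 had 19 reads in the mutant library and 29 in the wild-type library (-0.67, -1.58 to 0.22), and the split of reads between such copies is uncertain. TT19, a glutathione transferase needed for anthocyanin to reach the vacuole, had 18 reads in the mutant library and 29 in the wild-type library (-0.74, -1.68 to 0.15). The proanthocyanidin gene BAN, active mainly in the seed coat, had 1 read in each library.

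No gene was called in a list of other members of the MYB and bHLH network. Of its 29 genes 14 were tested, 0 were called by the exact binomial test (2.58% of all tested genes were) and 0 had an unadjusted p under 0.05 (24.3% of all tested genes had). The latter share depends on how many reads a gene has, and it was not matched to the reads of these genes. The log2 ratios ran from -0.60 to 0.54 with a median of -0.02, which turned to 0.05 with total counts and 0.27 with summed reference genes as the scale. LBD37, a repressor of anthocyanin synthesis that responds to nitrogen, was at 96.8 CPM in the mutant library and 99.0 CPM in the wild-type library (-0.03, -0.24 to 0.17). COP1, the ubiquitin ligase that removes light-signalling factors including PAP1 in darkness, had 104 reads in the mutant library and 101 in the wild-type library (-0.01, -0.42 to 0.40). MYB4, a repressor of phenylpropanoid genes, had 75 reads in the mutant library and 80 in the wild-type library (-0.15, -0.62 to 0.32), and HYH, a light-responsive bZIP factor, had 58 reads in the mutant library and 74 in the wild-type library (-0.41, -0.93 to 0.11).

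No marker of leaf cell types was called, and their part in these results was not tested. All 4 epidermal markers, the layer in which leaf flavonoids largely accumulate, had log2 ratios above 0, with an adjusted p under 0.05 for 1 of them (CER6). They summed to 500 CPM in the mutant library and 381 CPM in the wild-type library, of which the wax-synthesis gene CER6 gave 329 CPM in the mutant library and 233 CPM in the wild-type library. The 4 mesophyll markers had log2 ratios below 0, with an adjusted p under 0.05 for 3 of them, and summed to 46748 CPM in the mutant library and 53121 CPM in the wild-type library, but 2 of them, LHCB1.3 (-0.01) and LHCB4.1 (-0.04), turned positive with total counts as library sizes (0.06 and 0.03). The 4 trichome markers summed to 17.4 CPM in the mutant library and 18.6 CPM in the wild-type library, with GL1 at 0 in both. The 4 guard cell markers summed to 37.7 CPM in the mutant library and 42.2 CPM in the wild-type library. In whole leaves, fewer cells of a type and less RNA per cell cannot be told apart.

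**Figure D3:**
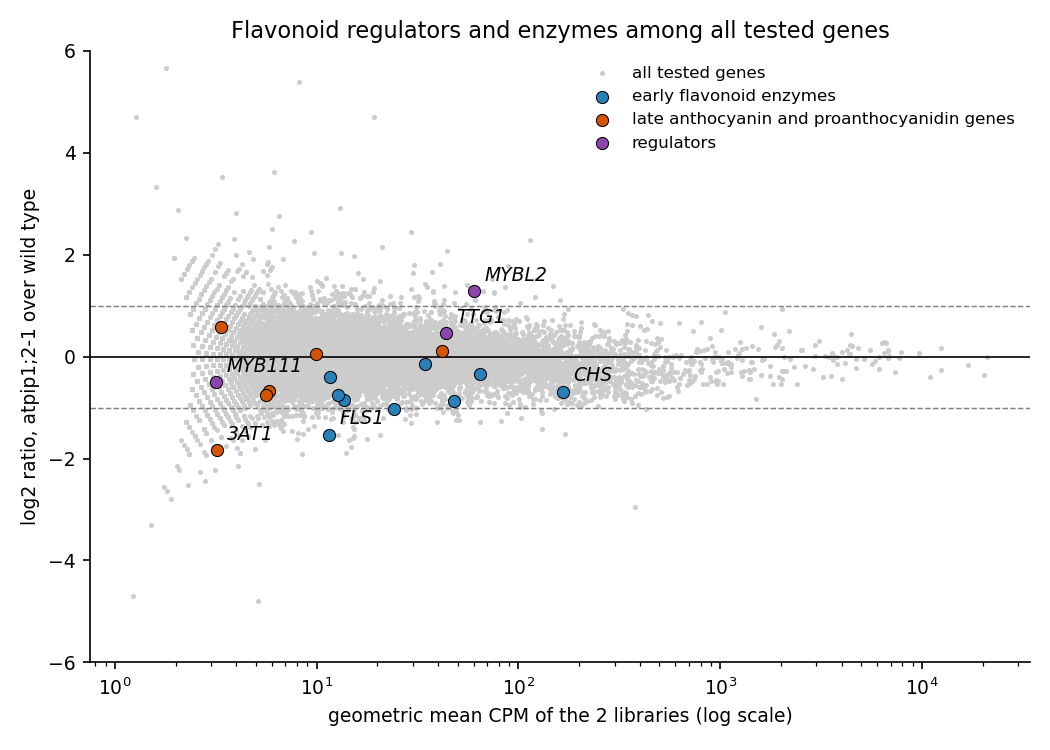
Log2 ratio of the atpip1;2-1 library over the wild-type library against the geometric mean level in CPM (log scale) for all 15111 tested genes (grey), with the 3 tested regulators, 9 early enzymes and 6 late genes in colour. Dashed lines mark a 2-fold difference. MYBL2 at 1.29 lies above nearly all genes of its level, TTG1 at 0.46 and MYB111 at -0.50 lie within the grey points.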

How the data were processed

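Each deposited table held raw read counts, whole numbers in 1 column per genotype, per the file headers. Libraries of transcript 3′ ends were built and quality-checked by a company, per the labels' protocols. The submitters' processing notes name TAIR9 as the build. No source used here names the aligner, the counter or the use of strand. Names, transcript lengths and neighbours came from RefSeq TAIR10.1 (26604 loci matched), so no coordinates are printed.

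TMM factors (1.02 for atpip1;2-1, 0.976 for the wild type) came from edgeR 4.0.16 in R 4.3.3. A quasi-likelihood fit needs replicates, so a two-sided exact binomial test of the reads with Benjamini-Hochberg adjustment over 15111 genes was used instead (Python 3.11.15, scipy 1.17.1). It was checked on simulated data that held counting error only. Without any spread between plants in it, that check cannot show how the calls stand up to such spread. Log2 ratios have Clopper-Pearson intervals. Reads carry no molecular identifiers, so intervals and the floor of 3 reads cover counting error only. Regulators and lists were chosen with earlier results of these data known. All 9 regulators are named, and from each list every called gene and the 4 with most reads. PAP2, MYB113, MYB114, BAN, MYB51 and the neighbouring loci were named in addition. Alternatives changed the scaling (DESeq2 1.42.0 factors among them), the read minimum, the fold and the test.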

Additional observations from a re-analysis of the deposited data

How the results depend on the processing

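The log2 ratio of MYBL2 kept its sign and its call under 9 of 11 alternatives, from 1.26 to 1.58. Among these, the changes of the read minimum and the 1.5-fold threshold could hardly have removed the call of a gene with its reads and ratio. The call was lost at the same ratio of 1.29 when the edgeR exact test assumed a biological coefficient of variation of 0.2 (adjusted p 0.802) or 0.4 (adjusted p 1). With these 2 coefficients 0 regulators and 0 early enzymes were called by the edgeR exact test. TTG1 (0.43 to 0.75) kept its sign and stayed uncalled in all 11, but its adjusted p by the edgeR exact test was 0.543 with an assumed coefficient of 0.1. MYB111 ran from -0.53 to -0.21 and was not tested at a minimum of 50 reads. PAP1 ran from 0.07 to 0.38 and was tested only with no minimum. The early enzymes had 2 calls, but 1 with total counts, with totals without organelle-encoded and the 20 most abundant genes, or with summed reference genes, and 5 at 1.5-fold. Of the late genes 1 was called (3AT1), and 0 with a minimum of 50 reads and with assumed coefficients of 0.1, 0.2 and 0.4. Over all tested genes 390 were called, against 732 with summed reference genes, 1154 at 1.5-fold, and 189, 18 and 2 with assumed coefficients of 0.1, 0.2 and 0.4. Summed reference genes raised all log2 ratios by 0.29, and EF1A alone held 26.6% of their reads in the mutant library and 38.9% in the wild-type library. The median ratio of these genes as the scale, chosen after seeing the data, gave 401 calls. MYB11, MYB12, TT8, GL3 and EGL3 had no more than 3 reads in either library and no ratio is given for them. MYB12 and TT8 were tested, and not called, only with no minimum. No paired analysis was possible because each genotype had 1 library. The 6 untested regulators had too few reads at this depth. Whether the annotated 3′ ends used in counting captured their transcripts was not tested.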
